A study of Homo sapiens with 26 samples.

Results

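COR-L311, a human small cell lung cancer line, was examined at day 5 after lentiviral infection with either of 2 guide RNAs against the transcription factor gene POU2F3 (sgPOU2F3e10.1 and sgPOU2F3e10.2, together sgPOU2F3), beside the same line infected with a control guide (sgNeg) and harvested on the same day. Its members were 3 of the series' 26 libraries, chosen by their labels as this line with these guides. The POU2F3 guide libraries were deposited as 1 combined column, in a way the sources used here do not give, and sgNeg as another. Another column, from exponentially growing, uninfected parental COR-L311 cells in a separate table, served as a second baseline. Of 19128 genes in the table, 12204 reached 1 FPKM (fragments for each kilobase of transcript and M mapped fragments) in sgPOU2F3 or sgNeg and were compared. The rest of the series holds the same guides in NCI-H211 and NCI-H1048 at day 4 and NCI-H526 at day 5, and the parental libraries of 14 lines. With 1 value per arm of COR-L311 there was no spread between replicates and no test within the line, so differences are given by size alone. All 3 arms are 1 line, and a level in them is a mean over a whole culture, in which fewer cells of a type and less RNA per cell cannot be told apart.

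POU2F3 is a POU domain transcription factor that binds octamer DNA motifs, and in mice tuft cells do not form without it. Tuft cells are rare chemosensory epithelial cells that detect luminal signals through a taste-like cascade of G proteins, phospholipase C and the channel TRPM5, and release acetylcholine, leukotrienes and prostaglandins. A subset of small cell lung cancers has tuft cell genes in place of the neuroendocrine program that most of these tumours carry, of which NEUROD1 is a known driver.

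POU2F3, the targeted gene, was at 218 FPKM in sgPOU2F3 cells, against 272 FPKM in sgNeg cells and 332 FPKM in parental cells. Its log2 ratio of sgPOU2F3 over sgNeg, taken as a difference of log2(FPKM + 1) here and throughout, was -0.31, which is also the lower quartile over all 12204 genes. Cuts by a guide alter the coding sequence, so the RNA level does not measure the loss of the protein. Parental NCI-H211, NCI-H1048 and NCI-H526 had 189 to 387 FPKM of POU2F3, and the 10 remaining parental lines had 0 to 0.608 FPKM. In the other knockout lines the POU2F3 ratio was -3.79 in NCI-H211, -1.69 in NCI-H1048 and -1.29 in NCI-H526, and the difference of COR-L311 from their mean, 1.94 ± 1.01 (SE), did not pass (limma, adjusted p = 0.48, 1 line against 3).

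The sgPOU2F3 and sgNeg columns were each closest to parental COR-L311 among 14 parental lines, with rank correlations of 0.965 and 0.973 across genes, each library lying nearest to its own line. Depth was estimated from the steps of low FPKM values as 23.8 M fragments in sgPOU2F3, 12.1 M in sgNeg and 10.9 M in parental (M, mega). At those depths 1 FPKM on a transcript of 2 kb stands for 47.6, 24.3 and 21.9 fragments in that order. Genes at 0 made up 15.9% of the table in sgPOU2F3, 21.3% in sgNeg and 21.3% in parental. Markers of other cell types were near 0: none of 6 fibroblast markers passed 1 FPKM, and their summed level was 0.835, 0.129 and 0.142 FPKM in sgPOU2F3, sgNeg and parental cells. Of 6 blood markers, CD14 alone passed, with 3 of the 6 at 0 in both sgPOU2F3 and sgNeg, and of 4 endothelial markers CDH5 alone, at 1.39 FPKM in sgPOU2F3, 0 in sgNeg and 0.0237 in parental cells.

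At a difference of 1 on the log2 scale, called 2-fold here, 522 genes were higher in sgPOU2F3 than in sgNeg cells (4.28% of those compared) and 259 were lower (2.12%). These shares of all compared genes are the background for each count in a gene list below. The median ratio was -0.02, with quartiles of -0.31 and 0.29. The 2 controls differed from each other as much: sgNeg was 2-fold or more higher than parental at 540 genes (4.43%) and lower at 292 (2.39%), together 6.82%, against 6.4% between sgPOU2F3 and sgNeg. The SD of the ratio over genes was 0.57 for sgPOU2F3 over sgNeg and 0.56 for sgNeg over parental. Levels are therefore given in all 3 columns. Against the nearer of the 2 controls, a comparison added after the data were seen, 336 genes were 2-fold or more higher in sgPOU2F3 cells (2.75%) and 109 were lower (0.893%). The comparisons of sgPOU2F3 with sgNeg and with parental share the sgPOU2F3 column and are not independent. The sgPOU2F3 column was 2-fold or more higher than parental at 880 genes (7.21%) and lower at 532 (4.36%).

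**Figure D1:**
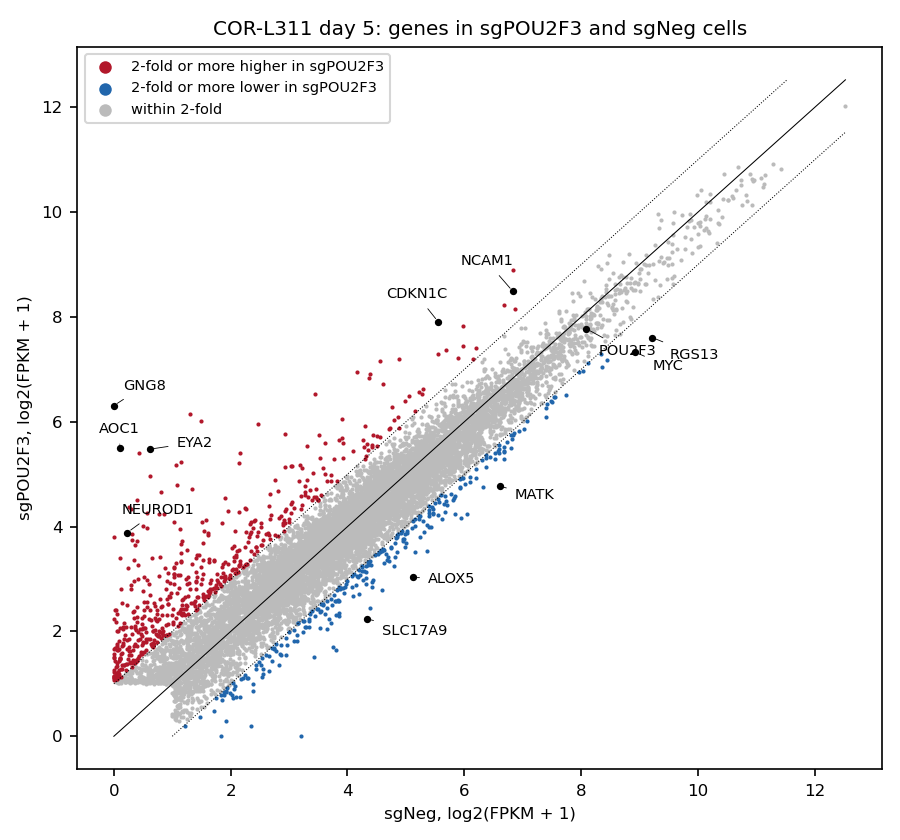
Level of each of the 12204 compared genes in COR-L311 sgPOU2F3 cells (vertical axis) and sgNeg cells (horizontal axis), both as log2(FPKM + 1), 1 column per arm. Points above the upper dotted line (522) or below the lower dotted line (259) differ by 2-fold or more, and EYA2, AOC1, GNG8 and NEUROD1 lie near 0 in sgNeg cells.

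Genes lower in sgPOU2F3 cells were rich in GC. The rank correlation across 12155 genes between the ratio and transcript GC content was -0.33, against 0.15 for sgNeg over parental, 0.00 in NCI-H211, 0.29 in NCI-H1048 and 0.13 in NCI-H526. Genes are not independent replicates and these are descriptions. The median GC content was 52.9% over the genes 2-fold or more higher, 60% over the genes lower and 50.6% over all genes. In the quintile of genes richest in GC, 5.51% were 2-fold or more lower in sgPOU2F3 cells, against 0.288% in the poorest quintile, while the higher genes made up 4.73% and 3.13% of these quintiles. With ratios centred within 20 bins of GC content, an alternative added after the data were seen, 574 genes were higher and 143 were lower, beside 522 and 259 as deposited. The part of GC content in any single difference was not tested.

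**Figure D2:**
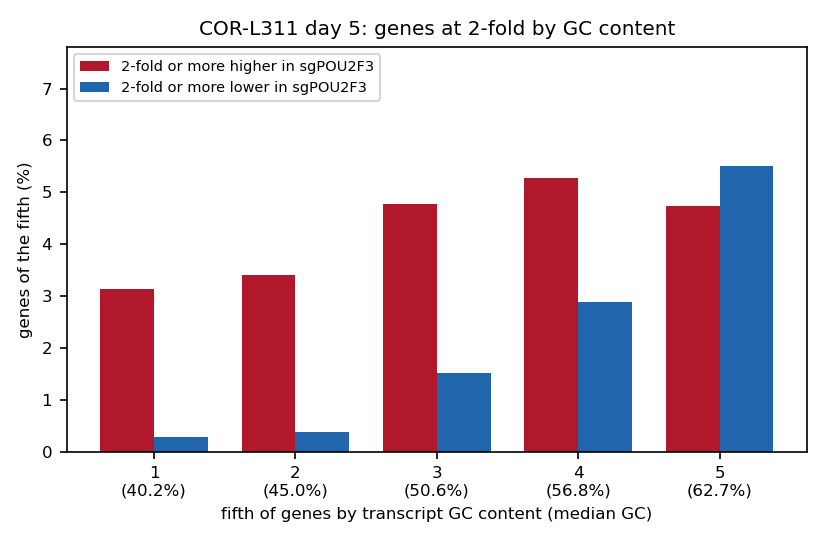
Share of genes (%) that were 2-fold or more higher (red) or lower (blue) in sgPOU2F3 than in sgNeg cells of COR-L311, by quintile of transcript GC content, with each quintile's median GC below it (2431 genes per quintile). The lower genes climb to 5.51% in the richest quintile, while the higher genes stay between 3.13% and 5.27%.

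Tuft cell markers had ratios below 0 in most, not all, members, and 10 of them were 2-fold or more lower in sgPOU2F3 cells. Of 46 tuft cell markers, 39 passed the filter. Among them 10 were 2-fold or more lower and 2 higher than in sgNeg cells, beside 2.12% and 4.28% of all compared genes. Ratios lay below 0 in 32 of 39, and in 6311 of all 12204 genes. The median ratio was -0.73, beside -0.02 over all genes, and -0.58 against parental cells. Of the 10, 7 were also 2-fold or more lower than parental. Centred for GC content the list's median was -0.67, with the counts again 10 and 2.

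In the leukotriene branch, ALOX5, the 5-lipoxygenase that makes leukotrienes, was at 7.17 FPKM in sgPOU2F3 cells, against 33.9 FPKM in sgNeg and 32.9 FPKM in parental cells. The 2 controls lay close together, and the ratio of -2.09 was the 5th lowest of all compared genes. Its activating protein ALOX5AP was at 12.1, 20.7 and 7.88 FPKM in sgPOU2F3, sgNeg and parental cells, so it was below one control and above the other. PTGS1, the cyclooxygenase of tuft cells, had 82.4, 138 and 98.3 FPKM in the same order (ratio -0.73). All 11 measured genes of eicosanoid synthesis and export were below 0, with a median of -0.62, and ALOX5 was the only one at 2-fold or more.

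The signalling cascade of tuft cells held several of the larger differences. RGS13, which speeds GTP hydrolysis by G proteins, was at 194 FPKM in sgPOU2F3, 595 FPKM in sgNeg and 508 FPKM in parental cells (ratio -1.61). RGS13 was at 0 in all 10 parental lines outside the 4 knockout lines. TRPM5, the calcium-gated cation channel at the end of the taste cascade, had 26.1 FPKM in sgPOU2F3 cells, against 78.5 FPKM in sgNeg and 46.1 FPKM in parental cells, a ratio of -1.55 to sgNeg and -0.80 to parental. GNG13, the G protein gamma subunit of taste cells, was at 16.7, 48.2 and 79.4 FPKM in sgPOU2F3, sgNeg and parental cells. PLCG2, a phospholipase C outside the list of taste transduction genes, was at 27.9, 67.6 and 61.8 FPKM in the same columns. Both were lower than both controls by 2-fold or more. TAS1R3, a subunit of the sweet and umami receptors, had 4.95 FPKM in sgPOU2F3, 13.5 FPKM in sgNeg and 21 FPKM in parental cells, with a ratio of -1.29 that was just within 2-fold once centred for GC content. GNB3, the beta subunit that partners GNG13, went the other way, at 15.8, 8.99 and 11.4 FPKM in sgPOU2F3, sgNeg and parental cells. Over 14 measured genes of taste transduction 3 were 2-fold or more lower and none higher, beside 2.12% and 4.28% of all compared genes. Their median was -0.17 against sgNeg and 0.15 against parental, so its sign turned with the baseline.

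CHAT and SLC18A3, a pair of neighbouring genes chosen here from different lists, were both lower. CHAT, the enzyme that makes acetylcholine, was at 6.85 FPKM in sgPOU2F3 cells, against 20.7 FPKM in sgNeg and 20.7 FPKM in parental cells. SLC18A3, which loads acetylcholine into vesicles and lies in the same locus on chromosome 10, was at 15, 42.1 and 31.6 FPKM in sgPOU2F3, sgNeg and parental cells. The ratios to sgNeg were -1.47 and -1.43. SLC17A9, the vesicular transporter of nucleotides and no acetylcholine gene, was at 3.72 FPKM in sgPOU2F3, 19.2 FPKM in sgNeg and 22.5 FPKM in parental cells (ratio -2.10). The 2 promoters of the cholinergic locus are shown because POU2F3 binds octamer-like DNA, from RefSeq on GRCh38.p14, a later build than the hg19 of the tables, from 250 bases before to 50 after each gene's start, 5′ to 3′.
CHAT promoter, chr10:49608845-49609144, plus strand: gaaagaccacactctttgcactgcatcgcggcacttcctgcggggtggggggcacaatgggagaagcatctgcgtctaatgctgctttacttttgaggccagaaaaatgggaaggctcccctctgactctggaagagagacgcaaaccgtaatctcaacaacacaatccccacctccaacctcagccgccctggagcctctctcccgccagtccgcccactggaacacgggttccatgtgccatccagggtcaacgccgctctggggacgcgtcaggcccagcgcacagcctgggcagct
SLC18A3 promoter, chr10:49610060-49610359, plus strand: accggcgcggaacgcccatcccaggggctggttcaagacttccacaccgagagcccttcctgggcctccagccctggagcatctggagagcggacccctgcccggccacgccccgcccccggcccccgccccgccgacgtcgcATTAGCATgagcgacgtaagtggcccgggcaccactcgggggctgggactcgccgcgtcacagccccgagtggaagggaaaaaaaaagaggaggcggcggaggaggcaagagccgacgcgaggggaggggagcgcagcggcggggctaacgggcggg
The capitals mark ATTAGCAT, the reverse complement of the octamer-like ATGCTAAT, which begins 107 bases before the SLC18A3 start. The CHAT window has neither it nor the octamer ATGCAAAT. Among all 27305 promoters from RefSeq, 0.7% held ATGCTAAT or its reverse complement, as did 1.55% of 193 promoters of the lower genes (3 promoters), 1.04% of 384 promoters of the higher genes (4 promoters) and 0.452% of those of all compared genes. A match is a description of the letters, not a binding site.

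Kinases and adaptors shared with blood cells, which tuft cells also use, had a median ratio of -0.64 over 22 measured genes, and -0.29 against parental. By 2-fold or more 4 of them were lower than sgNeg and 1 higher, beside 2.12% and 4.28% of all compared genes. MATK, a kinase that switches off Src family kinases, was at 26.3 FPKM in sgPOU2F3 cells, against 96.7 FPKM in sgNeg and 101 FPKM in parental cells (ratio -1.84). INPP5D, the lipid phosphatase SHIP1, was at 13.3, 27.9 and 28.5 FPKM in sgPOU2F3, sgNeg and parental cells, a ratio of -1.02 that became -0.88 once centred for GC content. PIK3R5, a regulatory subunit of PI3 kinase gamma, had 29.6, 72.4 and 39.5 FPKM in sgPOU2F3, sgNeg and parental cells. PSTPIP2 was at 4.95 FPKM in sgPOU2F3 and 13.3 FPKM in sgNeg but 3.81 FPKM in parental cells, so its direction turned with the baseline. ALDH2, the mitochondrial aldehyde dehydrogenase, was at 41.9, 101 and 69.8 FPKM in sgPOU2F3, sgNeg and parental cells.

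Not all of the tuft program was lower. HEPACAM2, a mitotic and adhesion protein of tuft and secretory cells, was at 169 FPKM in sgPOU2F3, 72.6 FPKM in sgNeg and 130 FPKM in parental cells (ratio 1.21). The succinate receptor SUCNR1 was at 3.58, 0.672 and 3.42 FPKM in sgPOU2F3, sgNeg and parental cells. Both were close to the parental level and far from sgNeg. KIT, AZGP1, BIK and INPPL1 were also above their sgNeg level, by 0.36 to 0.62.

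Transcription factors of tuft cells were within 2-fold of sgNeg, apart from SOX4 and HIVEP3. SPIB was at 63.6 FPKM in sgPOU2F3 and 81.1 FPKM in parental cells, with a ratio to sgNeg of -0.99. GFI1B was at 73.9, 120 and 79.1 FPKM in sgPOU2F3, sgNeg and parental cells, and SOX9 at 115, 187 and 194 FPKM in the same order. ASCL2 was at 74.5 FPKM in sgPOU2F3, 114 FPKM in sgNeg and 97.2 FPKM in parental cells. Of 12 measured, 9 lay below 0, with a median of -0.42, and none was 2-fold or more lower. SOX4 stood apart with a ratio of 2.31 to sgNeg cells, which had 28.6 FPKM, yet parental cells had 82.7 FPKM, a ratio of 0.81. HIVEP3 was at 1.49, 0.235 and 0.531 FPKM.

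The coactivators that work with POU2F3 were not lower. C11orf53 (also POU2AF2) was at 312 FPKM in sgPOU2F3, 318 FPKM in sgNeg and 341 FPKM in parental cells, and COLCA2 (POU2AF3) at 67.6, 33.9 and 26.9 FPKM in that order. COLCA1, the divergent neighbour of COLCA2, was at 25.2, 1.52 and 1.5 FPKM, a ratio of 3.38. POU2AF1 (also OCA-B) had 5.9, 3.75 and 5.61 FPKM. Counting did not use strand as far as the sources used here state, so COLCA1 and COLCA2 reads may be shared.

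**Figure D3:**
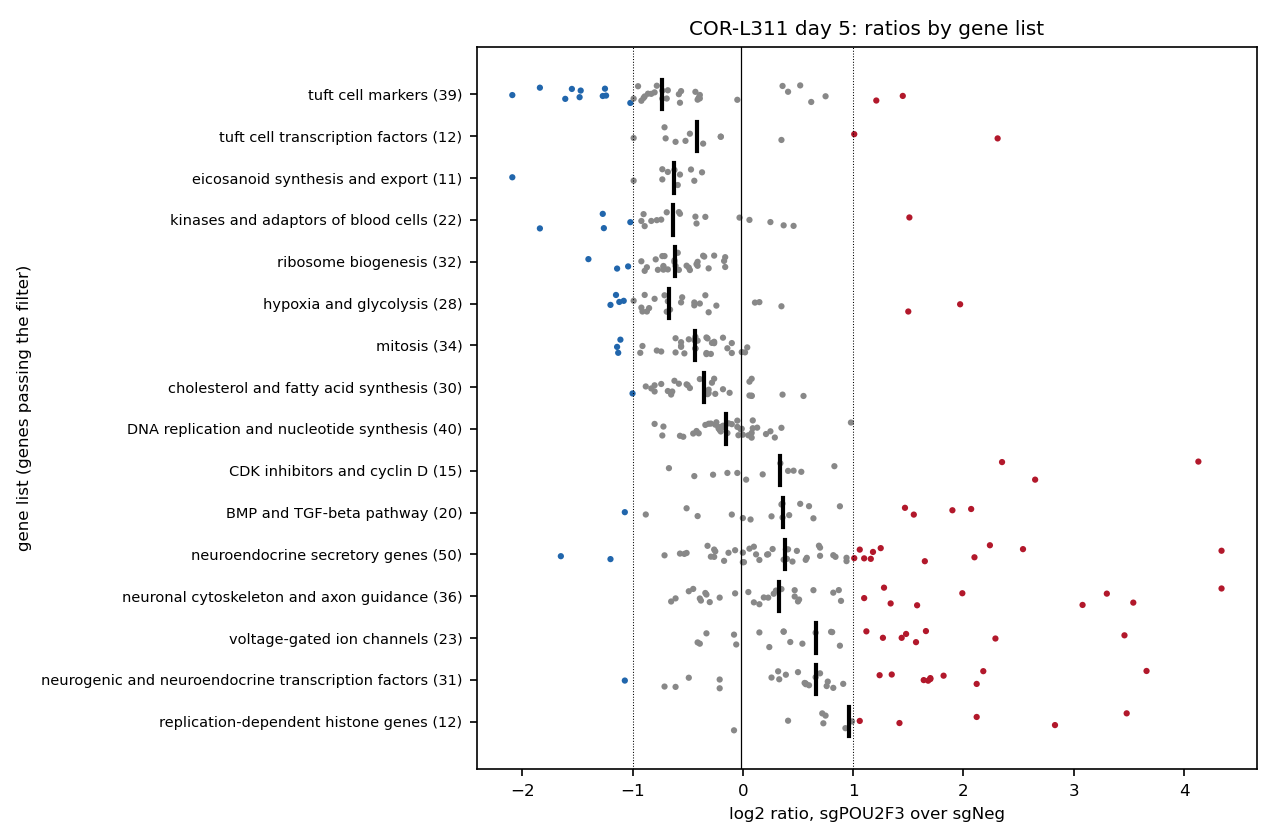
Log2 ratio of sgPOU2F3 over sgNeg in COR-L311 for each measured gene (point) of 16 gene lists, with the list's median (black bar) and the number of genes beside its name. Red and blue points are 2-fold or more higher and lower, the solid line is the median of all genes (-0.02), and medians run from -0.73 in tuft cell markers to 0.96 in histone genes.

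Neurogenic and neuroendocrine transcription factors had ratios above 0 in most members. Of 47 such genes 31 passed the filter. Among these, 10 were 2-fold or more higher and 1, SOX1, was lower, beside 4.28% and 2.12% of all compared genes. Ratios lay above 0 in 25 of 31, and in 5893 of all 12204 genes. The median ratio was 0.66 against sgNeg and 0.88 against parental, and 7 were 2-fold or more higher than both controls. Centred for GC content, 11 were higher and none lower.

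NEUROD1, the basic helix-loop-helix factor that defines 1 neuroendocrine subtype of small cell lung cancer, was at 13.8 FPKM in sgPOU2F3, 0.173 FPKM in sgNeg and 0.4 FPKM in parental cells. At the estimated depths the levels in both controls stand on few fragments. Among the 10 parental lines outside the knockout set NEUROD1 ran from 0 to 289 FPKM with a median of 1.95 FPKM, so the sgPOU2F3 level was above that median and far below the highest line, NCI-H524. Its relatives NEUROD4 (5.12, 0.733 and 0.398 FPKM in sgPOU2F3, sgNeg and parental cells) and NEUROD6 (3.18, 0.29 and 0.143 FPKM) were low but higher than in both controls. NHLH1, another helix-loop-helix factor of young neurons, was at 105 FPKM in sgPOU2F3 cells, against 23.4 FPKM in sgNeg and 17.6 FPKM in parental cells (ratio 2.12). NKX2-2, a homeodomain factor of neural tube and endocrine cells, was at 7.65, 0.906 and 0.0996 FPKM in the 3 columns.

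Zinc finger and other regulators of the program followed with smaller ratios. INSM1, a repressor required for neuroendocrine differentiation, was at 165 FPKM in sgPOU2F3, 50.7 FPKM in sgNeg and 79 FPKM in parental cells. MYT1L, which keeps neurons from other fates, was at 9.3, 2.29 and 4.48 FPKM, and TCF4, a partner of proneural factors, at 28.1, 7.97 and 18 FPKM. INSM1 and MYT1L had ratios of 1.68 and 1.64 to sgNeg, and all 3 genes were nearer to parental than to sgNeg. FOXA1, an endoderm pioneer factor, was at 3.05, 0.586 and 1.06 FPKM. SOX1, a neural stem cell factor, was at 8.67 FPKM in sgPOU2F3, 19.3 FPKM in sgNeg and 15.2 FPKM in parental cells, and its ratio of -1.07 became -0.87 once centred for GC content.

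Clinical neuroendocrine markers were split: INSM1 and NCAM1 had ratios of 1.68 and 1.65 to sgNeg, while CHGA and SYP were within 2-fold. CHGA, a granule protein, was at 32.6, 48.8 and 50.4 FPKM in sgPOU2F3, sgNeg and parental cells. SYP, a vesicle protein, was at 46.7, 35.8 and 28 FPKM. DLL3, a Notch ligand and surface target in these tumours, was also within 2-fold, at 40.8, 40.7 and 48.8 FPKM.

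Among 50 measured neuroendocrine secretory genes 11 were 2-fold or more higher and 2 lower, beside 4.28% and 2.12% of all compared genes. The list's median was 0.38, and 3 of the 11 were also 2-fold or more higher than parental. NCAM1, the adhesion molecule CD56, was at 358 FPKM in sgPOU2F3, 113 FPKM in sgNeg and 213 FPKM in parental cells. CPE, the carboxypeptidase that trims prohormones, was at 53, 10.4 and 16 FPKM, and SYT4, a synaptotagmin, at 16.4, 1.99 and 4.31 FPKM. For others the parental level was close to sgPOU2F3 and only sgNeg was low, as with CADPS, a factor of granule release, at 10.6, 4.12 and 10.9 FPKM. VGF, a neuropeptide precursor, was lower at 10.4 FPKM in sgPOU2F3, against 34.7 FPKM in sgNeg and 21.7 FPKM in parental cells, and CPLX1, a complexin, at 17.4, 41.3 and 36 FPKM.

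Genes of axons and the neuronal cytoskeleton were higher at 9 of 36 measured and lower at none (median 0.32), beside 4.28% and 2.12% of all compared genes. Of the 9, 6 were higher than both controls by 2-fold or more. GAP43, the growth cone protein, was at 30.1 FPKM in sgPOU2F3, 0.539 FPKM in sgNeg and 2.48 FPKM in parental cells. DCX, a microtubule protein of migrating neurons, was at 13.5, 0.245 and 1.05 FPKM, and the adhesion molecule CNTN2 at 9.57, 0.0758 and 0.437 FPKM. EFNB2, an ephrin ligand, was at 91.2 FPKM in sgPOU2F3 cells, against 9.94 FPKM in sgNeg and 27.8 FPKM in parental cells. The list of voltage-gated ion channels, which also holds KCNJ3 and KCNJ6 although they are not voltage-gated, was higher at 8 of 23 and lower at none (median 0.66). Of the 8, 6 were above both controls, and 4.28% of all compared genes were higher than sgNeg. KCNJ6, a potassium channel opened by G proteins, was at 5.87, 0.407 and 0.613 FPKM in sgPOU2F3, sgNeg and parental cells. Somatostatin receptors were higher as well: SSTR2 was at 36.3 FPKM in sgPOU2F3, 3.4 FPKM in sgNeg and 1.93 FPKM in parental cells, and SSTR3 at 3.7, 0.512 and 1.28 FPKM.

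EYA2, a phosphatase and coactivator of homeodomain factors, was at 43.6 FPKM in sgPOU2F3, 0.537 FPKM in sgNeg and 1.57 FPKM in parental cells. Its partner in the retinal determination network, DACH1, was at 16.1, 1.03 and 4.67 FPKM. The other 6 measured genes of this network were within 2-fold, with a list median of -0.13 against sgNeg and 0.09 against parental. In the 10 parental lines outside the knockout set EYA2 ranged from 1.17 to 159 FPKM, with a median of 23.4 FPKM, so that the sgPOU2F3 level lay above that median, parental COR-L311 near the lower end of the range and sgNeg below it.

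The 20 largest ratios in the higher direction ran from 3.48 to 6.31, and all 20 were 2-fold or more above both controls. In 14 of them sgNeg was under 1 FPKM, where the ratio depends on the pseudocount, and 2 were at 0 in sgNeg. GNG8, a G protein gamma subunit, was at 78.3 FPKM in sgPOU2F3 and listed at 0 in sgNeg and parental cells. MRLN, a small inhibitor of the muscle calcium pump, was at 12.9 FPKM in sgPOU2F3 and likewise listed at 0 in both controls. AOC1, the diamine oxidase that degrades histamine, was at 44 FPKM in sgPOU2F3, 0.0725 FPKM in sgNeg and 0 in parental cells. Several of the 20 are secreted proteins of barrier epithelia or matrix. SCGB1D2, a secretoglobin, was at 41.4, 0.352 and 0 FPKM in sgPOU2F3, sgNeg and parental cells. DEFA6, a Paneth cell defensin, was at 21.9, 0.311 and 1.08 FPKM. CRTAC1, a matrix protein of cartilage, was at 35.2, 1.1 and 1.39 FPKM.

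Further genes of the 20 with a signalling or neural role were SHD, an SH2 domain adaptor (24.2, 0.751 and 1.42 FPKM in sgPOU2F3, sgNeg and parental cells), CHODL, a lectin of motor neurons (19.2, 0.221 and 0.0511 FPKM), and NELL1, a secreted growth factor-like protein (26.9, 1.11 and 0.894 FPKM). BTBD17 was at 36.7, 1.21 and 6.34 FPKM, DAPL1 at 18.2, 0.483 and 1.67 FPKM, and THSD7A, a membrane protein of podocytes and endothelium, at 15.2, 0.42 and 3.07 FPKM. In these 3 the parental level was above sgNeg, with ratios to parental of 2.36, 2.85 and 1.99. For SCGB1D2 and its neighbour SCGB2A1 (113, 19.6 and 17 FPKM) similar copies exist, so reads may be split between family members. KRT81 (11.5, 0.285 and 0.164 FPKM) and KRT86 (9.77, 0.729 and 0.94 FPKM), which are nearly identical, are uncertain for the same reason.

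The 20 largest in the lower direction ran from -3.20 to -1.59, and 9 of the 20 were 2-fold or more below both controls. Those 9 included ALOX5, MATK, RGS13, SLC17A9, TERT, EFHD1, VSTM2B, MYC and FAM101A. TERT, the catalytic subunit of telomerase, was at 10.6 FPKM in sgPOU2F3, 40.2 FPKM in sgNeg and 45.9 FPKM in parental cells. EFHD1, a calcium-binding protein of mitochondria, was at 17.9, 65 and 92.5 FPKM, and VSTM2B at 18, 56.4 and 60.1 FPKM. In these 3 genes the controls lay close together and well above sgPOU2F3. FAM101A (also RFLNA), a filamin-binding protein, was at 0.138 FPKM in sgPOU2F3, 4.08 FPKM in sgNeg and 2.2 FPKM in parental cells.

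In the other 11, VGF among them, sgPOU2F3 was less than 2-fold below parental on the log2(FPKM + 1) scale. VGF (-0.99) and TMEM52 (-0.96) were close to that cut, and several of the 11 were more than 2-fold apart in plain FPKM. HES7, a transcriptional repressor of the segmentation clock, was at 2.15 FPKM in sgPOU2F3, 13 FPKM in sgNeg and 4.61 FPKM in parental cells. IFITM2, an antiviral membrane protein, was at 4.47, 19.8 and 8.39 FPKM, and LMF1, needed to fold lipases, at 5.94, 23.1 and 7.8 FPKM. The keratins KRT2 (1.86, 9.7 and 3.04 FPKM) and KRT72 (0.223, 2.77 and 0.499 FPKM) were below both controls, and nearer to parental than to sgNeg. TMEM52 was at 2.26, 12.4 and 5.34 FPKM, HAGHL at 17, 60.7 and 27.5 FPKM, and FAH, the last enzyme of tyrosine breakdown, at 3.15, 11.5 and 6.74 FPKM. The largest ratio, ZASP at 0 in sgPOU2F3, 8.21 FPKM in sgNeg and 0 in parental cells, is uncertain because ZASP is another name of LDB3, which was at 7.23, 0.424 and 3.05 FPKM. LOC100129216 was likewise listed at 0, 2.58 and 0 FPKM.

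**Figure D4:**
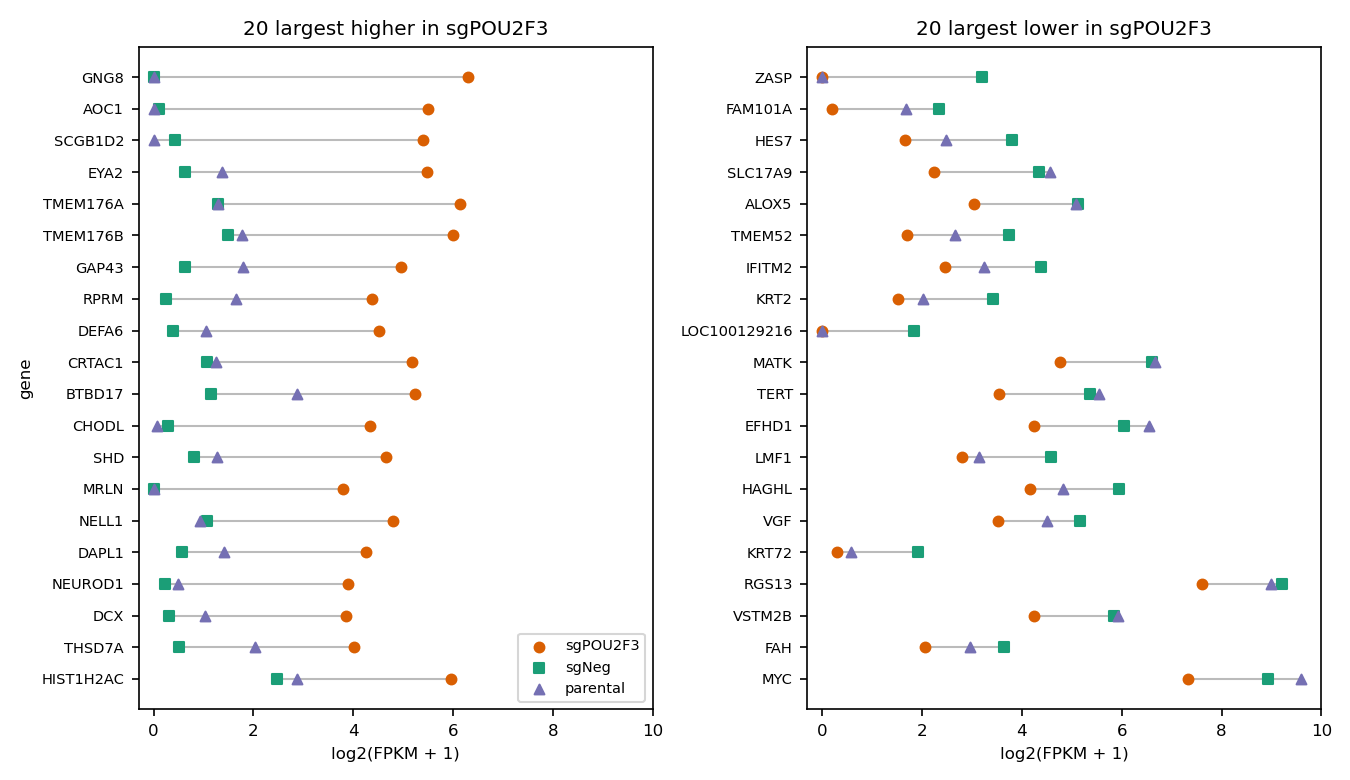
The 20 genes with the largest ratios in each direction, as log2(FPKM + 1) in sgPOU2F3 (circle), sgNeg (square) and parental (triangle) COR-L311 cells, 1 column each. On the left sgPOU2F3 lies at least 1 unit above both controls in all 20 genes, while on the right it lies at least 1 unit below both in 9 of 20.

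MYC, the oncogenic transcription factor amplified in a part of small cell lung cancers, was at 160 FPKM in sgPOU2F3, 484 FPKM in sgNeg and 767 FPKM in parental cells. Its ratio was -1.59 to sgNeg and -2.25 to parental. Parental COR-L311 was among the higher lines for MYC: the 10 lines outside the knockout set ran from 0.451 to 958 FPKM, with a median of 33.7 FPKM. Other MYC family members and partners were within 2-fold. MYCL was at 8.39, 14.3 and 5.46 FPKM and MYCN at 1.7, 1.3 and 2.19 FPKM in sgPOU2F3, sgNeg and parental cells.

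Ribosome biogenesis genes, many of which are known MYC targets, were all below 0, 32 of 32, beside 6311 of 12204 genes overall. The median was -0.62 against sgNeg and -0.87 against parental, and -0.53 once centred for GC content. By 2-fold or more, 3 were lower (2 once centred for GC content), beside 2.12% of all compared genes. MYBBP1A, a nucleolar MYB-binding protein, was at 14 FPKM in sgPOU2F3, 38.5 FPKM in sgNeg and 56.9 FPKM in parental cells. NPM3, a nucleoplasmin, was at 23.7, 53.5 and 59.4 FPKM, and RRP12, a ribosome export factor, at 6.76, 15 and 20.7 FPKM. Messages of the ribosomal proteins themselves, a family set looked at after the values were seen, had a median of -0.32 over 77 genes, and between the controls sgNeg was above parental by a median of 1.08.

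Of the cell cycle inhibitors 3 were 2-fold or more higher, and of 34 mitotic genes 3 were 2-fold or more lower (1 once centred for GC content). CDKN1C (p57), an inhibitor of cyclin-dependent kinases, was at 239 FPKM in sgPOU2F3, 46 FPKM in sgNeg and 51 FPKM in parental cells. CDKN1A (p21) was at 22.4, 2.73 and 1.52 FPKM, and RPRM, a p53-induced arrest gene, at 19.8, 0.192 and 2.14 FPKM. All 3 were 2-fold or more above both controls, with ratios to sgNeg of 2.35, 2.65 and 4.13. Over 15 CDK inhibitors and cyclin D genes no other member reached 2-fold, and the median was 0.34. Of 21 measured p53 targets 2 were 2-fold or more higher, CDKN1A and TP53INP1, beside 4.28% of all compared genes, with a list median of 0.04.

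Of 34 mitosis genes, 32 lay below 0 and 3 were 2-fold or more lower, beside 2.12% of all compared genes. The list's median was -0.43 (-0.67 against parental). AURKB, a mitotic kinase, was at 50.3, 112 and 108 FPKM in sgPOU2F3, sgNeg and parental cells. CDC20, an activator of the anaphase-promoting complex, was at 42.5, 94.2 and 68.8 FPKM. PLK1, another mitotic kinase, was at 39.4, 86.2 and 82.4 FPKM. The list as a whole is poor in GC (median 42.6%), and its median was -0.53 once centred, while AURKB and CDC20 were then within 2-fold (-0.93 for CDC20). DNA replication genes were close to all genes against sgNeg, with a median of -0.15 and none of 40 at 2-fold in either direction. Against parental their median was -0.51, beside 0.04 over all genes.

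Hypoxia and glycolysis genes had a median of -0.67 over 28 measured. By 2-fold or more 4 were lower and 2 higher, beside 2.12% and 4.28% of all compared genes. Centred for GC content 2 were lower and 2 higher, with a median of -0.60, and SLC2A1 was then just within 2-fold (-0.98). HK2, a hexokinase, was at 5.67 FPKM in sgPOU2F3, 14.3 FPKM in sgNeg and 20.3 FPKM in parental cells. The glucose transporter SLC2A1 was at 11.9, 27 and 32.3 FPKM, and ALDOC, an aldolase, at 45, 101 and 154 FPKM. The 2 higher hypoxia genes were NDRG1 and CA9: NDRG1 was at 47.1, 11.2 and 21.1 FPKM in sgPOU2F3, sgNeg and parental cells, and CA9, a carbonic anhydrase, at 26.3, 8.64 and 4.57 FPKM. Cholesterol and fatty acid synthesis genes had a median of -0.35 over 30, with 1, SREBF1, at 2-fold lower (23.4, 47.8 and 50.4 FPKM), which is near the 2.12% of all genes. Centred for GC content SREBF1 had a ratio of -0.72 and none of the 30 reached 2-fold.

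Among 20 measured genes of the BMP and TGF-beta pathway 4 were 2-fold or more higher and 1 lower, beside 4.28% and 2.12% of all compared genes. The list's median was 0.36. The inhibitors of differentiation ID1 (298, 101 and 96 FPKM in sgPOU2F3, sgNeg and parental cells), ID3 (33.8, 8.31 and 16.5 FPKM) and ID4 (19.2, 3.81 and 13.4 FPKM) were among the 4 higher. BMF, a BH3-only killer protein, was at 174 FPKM in sgPOU2F3, 62.1 FPKM in sgNeg and 36.9 FPKM in parental cells, and was the only one of 20 apoptosis regulators at 2-fold. KRT19, a simple epithelial keratin, was at 6.45, 0.512 and 0.885 FPKM, alone of 34 junction and keratin genes in that direction. Both counts are near the 4.28% of all compared genes that were higher, so neither is a result about its list.

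The antigen presentation list turned with the baseline. Its median was -0.34 against sgNeg over 17 genes, and 0.90 against parental, while sgNeg itself had a median 1.26 above parental. HLA-DPA1, a class II chain, was at 1.14, 3.54 and 0.506 FPKM in sgPOU2F3, sgNeg and parental cells. HOX genes differed by cluster, a grouping made after the values were seen, and the shares of all compared genes were 4.28% higher and 2.12% lower. Of 8 HOXB genes 3 were 2-fold or more higher and none lower, with a median of 0.83, while of 11 HOXA genes 3 were lower and none higher, with a median of -0.28. Of 9 HOXC genes 1 was lower and none higher, although the median was 0.61, and of 5 HOXD genes 1 was lower and none higher, with a median of -0.57. Centred for GC content, 5 of all 33 measured HOX genes were higher and 1 was lower. HOXB8 was at 12.9, 3.95 and 0.288 FPKM, and the HOXB genes also had a median of 2.02 between sgNeg and parental. IGFBP2, which binds insulin-like growth factors, was at 7.38, 0.716 and 25.8 FPKM, so that sgPOU2F3 was above sgNeg and below parental.

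Histone genes of the replication-dependent clusters had the highest median of the 16 plotted lists, 0.96 over 12 genes, with 5 higher by 2-fold or more, all 5 also above parental, and none lower. By symbol, a set looked at after the values were seen, 30 of 69 histone genes passed the filter. Of these 30, 13 were 2-fold or more higher, beside 4.28% of all compared genes. Ratios lay above 0 in 29 of 30. HIST1H2AC was at 60.9 FPKM in sgPOU2F3, 4.55 FPKM in sgNeg and 6.35 FPKM in parental cells, and HIST1H2BD, beside it in RefSeq order, at 53.4, 6.63 and 7.64 FPKM. HIST2H2BE was at 28.5, 5.77 and 4.95 FPKM, and HIST1H2BK at 83.2, 30.5 and 35.5 FPKM. Cells in cycle make these messages without a poly(A) tail, and the libraries here were polyA-selected. Near-identical copies make the split of reads among them uncertain.

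Promoters of the 4 named histone genes are shown because histone H2B promoters carry an octamer, the motif of the POU2F family. The sequences are again from RefSeq on GRCh38.p14.
HIST1H2AC promoter, chr6:26123922-26124221, plus strand: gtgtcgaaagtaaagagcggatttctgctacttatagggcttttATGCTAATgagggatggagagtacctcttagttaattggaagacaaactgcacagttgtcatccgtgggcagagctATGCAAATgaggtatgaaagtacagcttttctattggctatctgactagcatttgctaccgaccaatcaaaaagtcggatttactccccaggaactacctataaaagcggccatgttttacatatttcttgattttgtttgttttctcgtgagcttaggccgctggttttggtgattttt
HIST2H2BE promoter, chr1:149886633-149886932, minus strand: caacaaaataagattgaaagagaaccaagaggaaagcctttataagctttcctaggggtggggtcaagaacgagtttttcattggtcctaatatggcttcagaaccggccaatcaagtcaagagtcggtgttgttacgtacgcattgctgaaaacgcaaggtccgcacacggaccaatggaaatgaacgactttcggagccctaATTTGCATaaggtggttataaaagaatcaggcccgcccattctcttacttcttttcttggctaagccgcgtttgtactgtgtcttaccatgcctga
HIST1H2BK promoter, chr6:27146809-27147108, minus strand: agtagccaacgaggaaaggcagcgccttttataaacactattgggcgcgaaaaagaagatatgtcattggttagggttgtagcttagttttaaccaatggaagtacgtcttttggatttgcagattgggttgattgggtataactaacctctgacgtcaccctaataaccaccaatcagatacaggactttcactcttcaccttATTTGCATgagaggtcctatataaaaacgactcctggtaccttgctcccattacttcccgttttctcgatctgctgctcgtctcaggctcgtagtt
HIST1H2BD promoter, chr6:26157871-26158170, plus strand: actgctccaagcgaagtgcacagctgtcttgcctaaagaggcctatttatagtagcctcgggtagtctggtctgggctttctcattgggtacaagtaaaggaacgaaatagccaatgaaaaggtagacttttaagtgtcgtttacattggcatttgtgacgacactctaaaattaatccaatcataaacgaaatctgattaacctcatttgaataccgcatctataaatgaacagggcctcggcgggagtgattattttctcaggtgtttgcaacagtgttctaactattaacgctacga
The capitals mark the octamer ATGCAAAT, or ATTTGCAT where it lies on the other strand, and ATGCTAAT. The octamer began 130 bases before the HIST1H2AC start and 46 bases before the HIST2H2BE and HIST1H2BK starts, and HIST1H2BD had none in its window. Over 26 histone genes with a promoter, 13 held the octamer, with a median ratio of 0.72 and 5 at 2-fold, while the 13 without had a median of 1.04 and 7 at 2-fold. Overall 1.8% of 27305 promoters held it, 1.41% of those of the compared genes, 3.12% of 384 promoters of higher genes (12) and 1.04% of 193 promoters of lower genes (2).

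Other motifs were counted on both strands in the same windows, 6 in all. The shorter ATGCAAA, which overlaps the octamer, was in 5.73% of promoters of higher genes, 3.63% of lower and 2.91% of compared genes. The E-box CAGATG, bound by NEUROD factors, was in 12.2%, 11.4% and 9.12%, and the E-box CAGCTG in 20.6%, 16.6% and 16.8%, in that order. CACGTG, the E-box of MYC, was in 3.91% of promoters of higher genes, 19.2% of lower genes and 10.3% of compared genes. The promoters of lower genes were also richer in GC, 69.3% against 65.7%, and the part of GC content in this share was not tested.

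Some genes stood beside each other in the genome, in an arrangement looked for after the values were seen. In RefSeq order among compared genes, 118 of the 522 higher genes lay in 53 runs of neighbours higher by 2-fold, and 24 of the 259 lower genes in 11 runs. With 4.28% and 2.12% of genes at 2-fold some neighbours fall together anyway, and how many was not worked out. Part of the runs are gene families or overlapping genes. TMEM176B, TMEM176A and AOC1 on chromosome 7 were all among the 20 largest. TMEM176A was at 69.6 FPKM in sgPOU2F3, 1.46 FPKM in sgNeg and 1.46 FPKM in parental cells, and TMEM176B, which overlaps it head to head, at 63.4, 1.82 and 2.4 FPKM, so reads of the pair may be shared. LRRN2, NFASC and CNTN2 on chromosome 1 were higher together, with LRRN2 at 16.1, 1.84 and 1.22 FPKM. Clustered protocadherins formed several runs. Of 16 PCDHB genes 10 passed the filter, and 8 of these were 2-fold or more higher, with a median of 1.24 and a lowest ratio of 0.93. Of 22 PCDHG genes 8 passed, and 4 of these were 2-fold or more higher, with a median of 0.98. The share of all compared genes was 4.28%. Genes such as PCDHB5 passed only through their sgPOU2F3 level, so these shares depend on the filter. Levels of both families were low, as with PCDHB5 at 3.8, 0.625 and 0.378 FPKM, and PCDHG genes share exons, so reads may be split. Among lower genes CHAT and SLC18A3, GNG13 with its neighbours LMF1 and SOX8 on chromosome 16, and TRPM5 with KCNQ1 on chromosome 11 formed runs.

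The other 3 knockout lines were set against COR-L311 by limma on the 8 columns of 4 lines, in 11388 genes, with COR-L311 assumed to vary like the rest. No gene passed at an adjusted p of 0.05 (lowest adjusted p = 0.39), and 1354 genes (11.9%) had an unadjusted p under that value, 672 with a higher (5.9%) and 682 with a lower (5.99%) ratio in COR-L311. NCI-H526 was also harvested at day 5, while NCI-H211 and NCI-H1048 were harvested at day 4, so against these 2 lines day differs along with the line. Leaving out NCI-H211 gave 574 genes past the threshold, 273 of them higher in COR-L311, and leaving out NCI-H1048 or NCI-H526 gave none.

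Genes with small p that did not pass included DUSP26, a phosphatase, with a ratio of 3.25 in COR-L311 against -0.24, -0.09 and 0.43 in NCI-H211, NCI-H1048 and NCI-H526 (difference 3.22 ± 0.33 SE, limma adjusted p = 0.39, and 0.0001 to 0.44 over the alternatives). LRRN2, EFNB2 and CPE followed in the higher direction, with differences of 3.55, 3.80 and 2.06. MYBBP1A led the lower direction with a ratio of -1.40 in COR-L311 against 0.11, 0.10 and -0.12 (difference -1.43 ± 0.20 SE, adjusted p = 0.39, and 0.0052 to 0.77 over the alternatives). EFHD1, CYBA, a subunit of NADPH oxidase, GMDS, an enzyme of GDP-fucose synthesis, and RHBDF2, a rhomboid-like regulator of shedding, followed with differences of -1.65, -1.70, -1.18 and -1.60.

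Side by side, several ratios of COR-L311 were near those of another line. NEUROD1 had a ratio of 3.66 in COR-L311 and 3.51 in NCI-H526, against 0.00 in both NCI-H211 and NCI-H1048, and NHLH1 2.12 in COR-L311 and 1.81 in NCI-H526, against 0.16 and 0.01. KRT19 was close in all 4 lines, at 2.30 in COR-L311, 1.73 in NCI-H211, 2.20 in NCI-H1048 and 1.85 in NCI-H526. RGS13 had -1.61 in COR-L311, against -4.37, -2.97 and -2.13, and CDKN1C 2.35, against -1.79, 0.62 and 2.73, in the order NCI-H211, NCI-H1048 and NCI-H526. Of the 20 largest higher genes, 5 were 2-fold or more higher in NCI-H526, 2 in NCI-H1048 and 1 in NCI-H211, while 3 were 2-fold or more lower in NCI-H211, 1 in NCI-H1048 and none in NCI-H526. The share of all genes that were 2-fold or more higher was 2.05%, 1.2% and 6.86% in these lines in that order. Of the 20 largest lower genes, 2 were lower in NCI-H526, 2 in NCI-H1048 and 5 in NCI-H211, beside 0.496%, 1.03% and 4.83% of all genes, and 1 was 2-fold or more higher in NCI-H526, none in NCI-H1048 and 2 in NCI-H211. In either direction 2.54% of genes were 2-fold or more apart in NCI-H526, 2.22% in NCI-H1048 and 11.7% in NCI-H211.

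**Figure D5:**
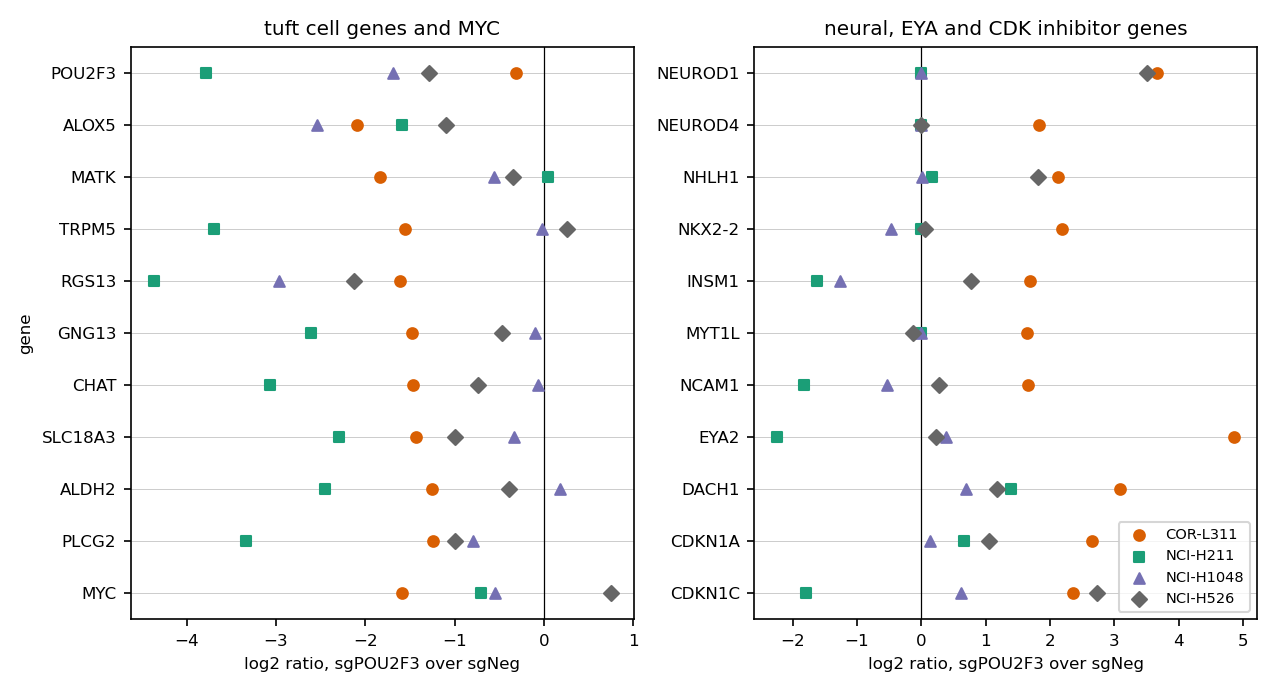
Log2 ratio of sgPOU2F3 over sgNeg for 22 named genes in COR-L311 (orange circle), NCI-H211, NCI-H1048 and NCI-H526, 1 ratio per line. COR-L311 is the line nearest 0 for POU2F3 (-0.31), and its NEUROD1 ratio (3.66) lies beside that of NCI-H526 (3.51).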

How the data were processed

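RNA was measured by sequencing polyA-selected libraries made with the Illumina TruSeq kit from TRIzol extracts, per the labels. The submitters' processing notes name TopHat2, Cufflinks, Cuffdiff and hg19, without versions or roles, and how columns were scaled, the annotation and the use of strand are not given in the sources used here. The authors deposited FPKM, normalized for transcript length and library size, in 5 tables. The labels call the parental table RPKM. The 2 POU2F3 guides form 1 deposited column per line, used as the authors' value. Parental cells are in a separate table, so levels set across tables may differ in scaling.

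Values were taken as log2(FPKM + 1) from the deposited FPKM, for genes with FPKM of 1 or more in either column, and a log2 difference of 1 or more was called 2-fold. This scale understates differences of low genes. A gene under 1 FPKM in 1 column passed only if the other reached it, so counts and medians of lists with low genes depend on the filter. Lines were compared with limma 3.58.1, run in R 4.3.3 with a variance trend, line and arm as terms, 2 residual degrees of freedom and Benjamini-Hochberg adjustment over all genes tested, in genes with FPKM of 1 or more in COR-L311 and in 2 or more of the other 3 lines. The ± there is the model's standard error. P-values measure only the spread between these lines. The limma fit and the counts were tested on simulated data.

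Members, the 43 gene lists and the rule for named genes were chosen with earlier results of these data known. The rule took POU2F3 and the markers ALOX5, MATK, EYA2 and NEUROD1, the 20 largest ratios each way, up to 6 genes at 2-fold each way in each list, and the 5 smallest p each way in the line test. Other genes named (families, neighbours, list members within 2-fold) were chosen after their values were seen. A few genes within the naming rule are left out of the text. Of the list genes, 6 were not in the table. GC content and lengths came from GENCODE release 29 and neighbours and promoters from RefSeq (GRCh38.p14), matched by symbol. Depth was estimated from the steps of low FPKM values in genes with 1 annotated transcript, and is not known otherwise.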

Additional observations from a re-analysis of the deposited data

How the results depend on the processing

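Pseudocount and baseline changed the counts most. Genes 2-fold or more higher, 522 or 4.28% of those compared, were 838 (6.87%) with a pseudocount of 0.1, 171 (1.4%) with 5, 3.16% of genes with an FPKM of 5 or more, 880 (7.21%) with parental as the baseline and 336 (2.75%) against the nearer control. Genes lower, 259 or 2.12%, were 436 (3.57%) with a pseudocount of 0.1, 98 (0.803%) with 5, 532 (4.36%) with parental as the baseline, 143 (1.18%) with ratios centred within GC bins and 109 (0.893%) against the nearer control. The GC and nearer-control settings were added after seeing the data. Median centring, quantile normalization and the mean of both controls kept both counts within 1.5 times. Dropping the filter could not change the counts, since levels under 1 FPKM in both columns cannot differ by 1 on this scale. It moved 12 list medians by more than 0.2. Among them were voltage-gated ion channels (0.66, then 0.27 over 39 genes) and the kinases and adaptors of blood cells (-0.64, then -0.11 over 35 genes). Reversed values were the median of mesenchymal genes (0.24, and -0.23 at an FPKM of 5 or more), the median of antigen presentation (-0.34, then 0.90 with parental and 0.44 with the mean of the controls as the baseline), and, with parental as the baseline, PSTPIP2 (0.31), HLA-DPA1 (0.50) and IGFBP2 (-1.68). Of 152 named genes 68 stayed on the same side of 2-fold under every setting run, as did 10 of 40 list medians within 0.2 of their value. In the test between lines, leaving out 1 line gave 0 to 574 genes past the threshold. The 574 came without NCI-H211. The other settings gave 0. The cause was not tested. No paired analysis was possible because the guide numbers are combined in 1 column and sgNeg has 1 library. Single guides, depth below the estimate and replicate spread limit all sizes given.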

Other observations

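Of the lists not yet described with 3 or more measured genes, the surface targets and drug resistance genes of small cell cancer had the highest median. It was 0.68 over 12 genes, beside -0.02 over all genes in COR-L311. This median depended on the filter, at 0.00 over 21 genes without it and 0.34 over 10 genes at an FPKM of 5 or more. In this list 4 genes were 2-fold or more higher (NCAM1, SSTR2, SSTR3 and B4GALNT1) and none lower, beside 4.28% and 2.12% of all compared genes. B4GALNT1, a ganglioside synthase, was at 6.5, 2.54 and 4.24 FPKM in sgPOU2F3, sgNeg and parental cells. The YAP pathway had a median of 0.57 over 9 genes against sgNeg and 0.06 against parental, with AMOTL2, an angiomotin that binds YAP, higher (77.3, 26.2 and 22.6 FPKM) and AJUBA, a LIM domain protein, lower (4.06, 11.3 and 9.33 FPKM). Cilia genes had a median of 0.39 over 6 genes against sgNeg and 0.03 against parental, with TPPP3 higher than sgNeg alone (25.4, 9.96 and 24.5 FPKM). Without the filter the medians against sgNeg were 0.00 over 17 YAP pathway genes and 0.09 over 17 cilia genes.

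Of 27 measured Notch pathway genes 1 was 2-fold or more higher and 1 lower (median 0.03), of 25 Wnt pathway genes 2 were higher and 1 lower (0.09), and of 16 receptor tyrosine kinases 3 were higher and 1 lower (0.22). The shares of all compared genes were 4.28% higher and 2.12% lower. The Notch and Wnt counts, of 1 or 2 genes each way, are too small to be a result about their lists. MAML3, a Notch coactivator, was at 11.4 FPKM in sgPOU2F3, 3.15 FPKM in sgNeg and 2.93 FPKM in parental cells, and WNT6 at 4.34, 0.433 and 0.25 FPKM. FGFR1, a receptor of fibroblast growth factors, was at 16, 6.97 and 5.34 FPKM, and FGFR4 at 0.605, 2.62 and 2.71 FPKM. Interferon response genes (16, median -0.06) and immediate early genes (27, median 0.05) were near 0, and 27 of 33 genes of the integrated stress and unfolded protein response lay below 0 without any at 2-fold (median -0.30 against sgNeg and -0.03 against parental).

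Of 10 measured mesenchymal genes 3 were 2-fold or more higher in sgPOU2F3 than in sgNeg cells and none lower, beside 4.28% and 2.12% of all compared genes. The list's summed level was 159, 191 and 132 FPKM in sgPOU2F3, sgNeg and parental cells. THY1, a surface glycoprotein, and CDH2, N-cadherin, made up most of the sum, at 82.1, 120 and 68.4 FPKM and at 39.9, 34.7 and 38.8 FPKM, and were within 2-fold. The 3 higher genes were CD44, SNAI2 and S100A6, all under 5 FPKM. CD44, a hyaluronan receptor, was at 3.53 FPKM in sgPOU2F3, 0.0215 FPKM in sgNeg and 0 in parental cells, and SNAI2, a transcription factor of mesenchymal transition, at 1.8 FPKM in sgPOU2F3, 0 in sgNeg and 0.147 FPKM in parental cells. FOXI1, the ionocyte factor, was at 1.71, 0.314 and 1.07 FPKM, and no club, goblet, basal or alveolar marker of the 3 measured reached 2-fold. Of 15 S100 genes, a set looked at after the values were seen, 6 passed the filter. Of these 6, 5 were 2-fold or more higher, beside 4.28% of all compared genes. S100A14 passed only through its sgPOU2F3 level, so this share depends on the filter. S100A4 was at 5.29, 1.33 and 0.614 FPKM and S100A14 at 1.99, 0.0948 and 0 FPKM in sgPOU2F3, sgNeg and parental cells.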
